A study of Mus musculus with 6 samples.

Results

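Rab GTPases are small membrane-bound switches that direct vesicle traffic, and their transcripts were examined in colon macrophages that lacked or carried Gsdmd, the gene for the pore-forming protein gasdermin D. Members were all genes whose symbol is Rab followed by a number, with or without a letter and a further digit, which gave 59 of the 17067 genes measured, and all 59 carried the same symbol in the RefSeq gene table. RNA sequencing had been made of 3 Gsdmd-/- and 3 WT samples. The Gsdmd-/- group lacked Gsdmd and the WT group did not. Both groups were of the C57BL/6 strain and 10 weeks old, and both had received dextran sulfate sodium (DSS), a polymer that injures the colon lining, so there was no group without colitis. The cells had been taken by flow sorting on CD45 (a marker of blood-derived cells), CD11b and F4/80 (surface proteins of macrophages). Separate mice for the samples of each group are not stated in the labels, and p-values here reflect only the spread among these samples, possibly a technical one.

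A Rab protein bound to GTP sits on the membrane of 1 kind of compartment and recruits effectors there, such as tethers, motors and lipid kinases. Guanine nucleotide exchange factors load GTP, GTPase-activating proteins speed its hydrolysis, and GDI, the dissociation inhibitor, takes the GDP-bound, prenylated protein back into the cytosol. In macrophages Rabs are best known for the maturation of phagosomes, the delivery of Toll-like receptors and the secretion of cytokines and granules.

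Levels are in FPKM, fragment counts adjusted for the length of the transcript and the depth of the library, which can be compared between genes. A gene was tested where 3 or more of the 6 samples reached 1 FPKM, which left 10005 genes. Changes are Gsdmd-/- minus WT on the scale log2(FPKM + 1), which understates the change of low genes. A gene is said to have risen or fallen where limma's adjusted p, by Benjamini-Hochberg over all 10005 genes, is under 0.05. In bulk RNA, fewer cells of a type and less RNA per cell cannot be told apart.

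Gsdmd itself had 28.5, 29.0 and 29.7 FPKM in the Gsdmd-/- samples, against 97.7, 99.4 and 97.4 FPKM in the WT samples. Its log2 change was -1.72 (SE 0.0326, adjusted p = 1.12e-11), and the groups did not overlap, so the labels matched the direction of the targeted gene while reads of it remained. The libraries held an estimated 20 M fragments in each Gsdmd-/- sample and 19.6 M to 19.9 M in the WT samples. The deposited values summed to 551502 to 565388 FPKM in Gsdmd-/- samples and to 476271 to 485411 FPKM in WT samples. The 10 macrophage markers were all detected. As deposited 5 rose and 5 fell, with the trend removed 1 rose and 8 fell, and in TPM 4 rose and 6 fell. Their summed level was 11400 to 11600 FPKM in Gsdmd-/- and 9690 to 10400 FPKM in WT samples. Of the genes behind the sort, CD45 (Ptprc) averaged 57.9 FPKM in Gsdmd-/- and 92.4 FPKM in WT samples. CD11b (Itgam) averaged 91.3 FPKM in Gsdmd-/- and 176 FPKM in WT samples, and F4/80 (Adgre1) 216 FPKM in Gsdmd-/- and 291 FPKM in WT samples. All of them fell, as deposited and with the trend removed. Fibroblast markers moved with the genotype too. Their 9 genes summed to 88.3 to 90.4 FPKM in Gsdmd-/- and 32.6 to 34.3 FPKM in WT samples, with 7 of 7 tested genes risen, while the defining genes Pdgfra and Lum stayed under 0.4 FPKM in every sample. Of 5 epithelial markers, Krt8, Krt19, Vil1 and Muc2 were at or near 0 in both groups, and Cdh1, the 1 tested, fell (1.88 FPKM in Gsdmd-/- and 3.15 FPKM in WT samples, log2 change -0.52). Neutrophil markers summed to 44.2 to 47.4 FPKM in Gsdmd-/- and 32.6 to 36.6 FPKM in WT samples (3 of 3 tested risen, mostly through Csf3r, with Ly6g at 0.06 FPKM or less). Endothelial markers summed to 33 to 38.4 FPKM in Gsdmd-/- and 62.5 to 66.6 FPKM in WT samples (1 of 3 tested fallen, Kdr). Most of that sum was Kdr, with 26.2 FPKM in Gsdmd-/- and 56.4 FPKM in WT samples. Vwf and Cdh5 did not pass the test as deposited and rose with the trend removed. Pecam1, not tested as deposited, averaged 0.86 FPKM in Gsdmd-/- and 0.363 FPKM in WT samples. Markers of mast cells summed to 2.06 to 2.15 FPKM in Gsdmd-/- and 3.47 to 3.73 FPKM in WT samples, nearly all of it Kit, the 1 tested, which fell (log2 change -0.62), with Cpa3 at or near 0. Of T cell genes, Cd3e was at or near 0, and Cd4 rose (2.41 FPKM in Gsdmd-/- and 1.38 FPKM in WT samples, log2 change 0.52). The part of other cell types in the changes of the Rab genes was not tested.

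The Rab family was broadly present in these macrophages. Of the 59 genes, 39 entered the test, and 22 averaged under 1 FPKM over the 6 samples, 10 of them under 0.1 FPKM. A few genes carried a large share of the family's summed level. Rab7, the Rab of late endosomes and lysosomes, averaged 345 FPKM over the 6 samples and made up 17% of the family's sum. It was followed by Rab5c of early endosomes (260 FPKM), Rab1a and Rab1b of transport from the endoplasmic reticulum to the Golgi (138 and 119 FPKM) and Rab9 (101 FPKM), which returns mannose-6-phosphate receptors from late endosomes. These 5 genes held 47.4% of the sum.

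**Figure D1:**
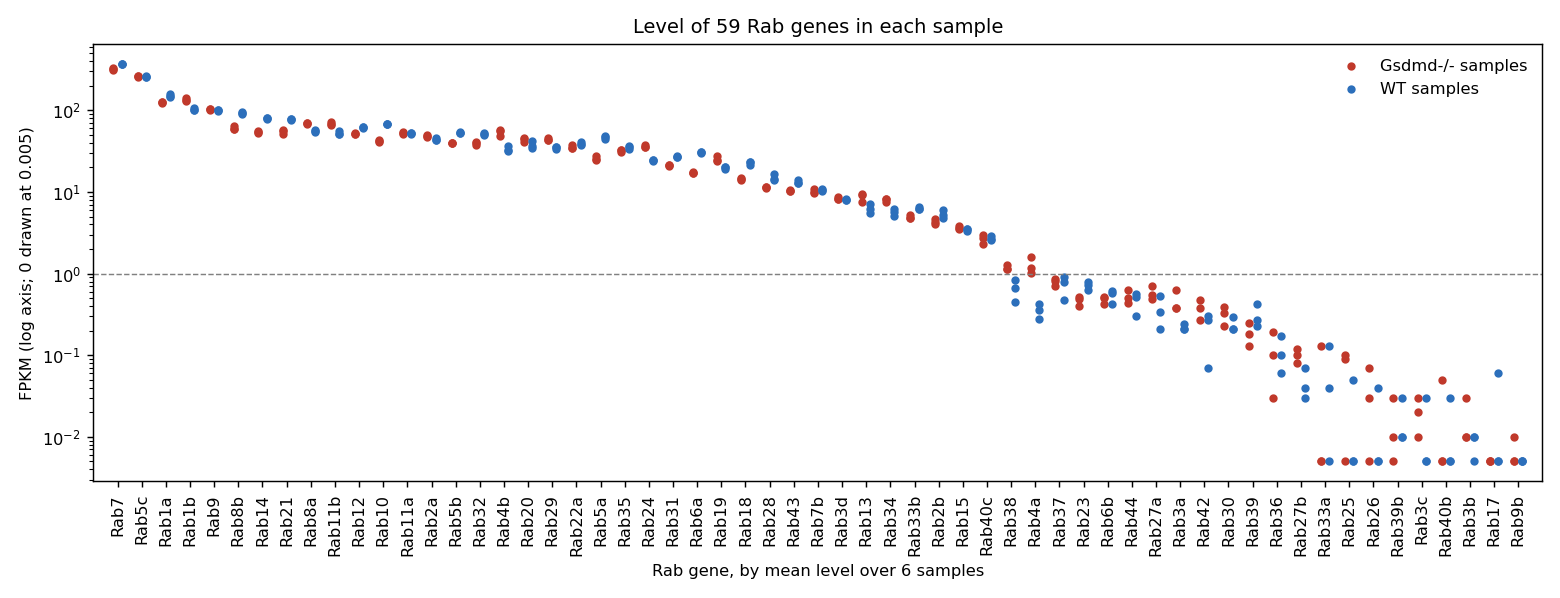
Level of each of the 59 Rab genes in FPKM on a log axis, with 1 point per sample, Gsdmd-/- samples left of WT samples at each gene, and the dashed line at 1 FPKM. Rab7 and Rab5c lie at the top, and 22 genes average under 1 FPKM.

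The family's summed level was 1963, 1963 and 1948 FPKM in the Gsdmd-/- samples, against 2114, 2116 and 2089 FPKM in the WT samples. Each Gsdmd-/- sample lay below every WT sample, and the exact two-sided permutation p was 0.1, the smallest that 3 against 3 samples allow. As a share of all FPKM, the family held 0.35 ± 0.00319% in Gsdmd-/- and 0.439 ± 0.00438% in WT samples (SD, n = 3 each). Because the totals differed between the groups, this share includes the higher total of the Gsdmd-/- samples as well as the lower sum of the Rabs.

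Single Rabs moved in both directions and by moderate amounts. Of the 39 tested genes, 19 fell and 13 rose, and 7 did not pass the test. The 13 include Rab4a and Rab38, which passed the filter through their Gsdmd-/- samples alone and so had to be higher there to be tested. Over all tested genes 36.9% fell and 40.6% rose, against 48.7% and 33.3% of the tested Rabs. The median change of the Rabs was -0.04 and that of all genes 0.03, and the median size of change was 0.338 for the Rabs and 0.329 for all genes. No tested Rab reached a 2-fold change on the log2(FPKM + 1) scale, while Rab5a (-1.06) and Rab6a (-1.03) passed it in TPM. Rab4a, a low gene, had a ratio of Gsdmd-/- to WT mean FPKM of 3.53 (1.26 and 0.357 FPKM). The 2 groups did not overlap for 32 of the 39 Rabs (82.1%), against 79.4% of all genes tested. The share of genes without overlap, and the sizes of the changes, were thus near those of all genes. By direction, a larger share of the Rabs fell and a smaller share rose, a difference over 39 genes that was not tested.

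Replicates lay close together, with a median SD within groups of 0.0455 on the log2 scale over the tested Rabs. Within each group the correlation between samples across all genes was 0.997 to 0.998, and between groups it was 0.967 to 0.975. The changes of Rab genes followed transcript length and GC content, as those of all genes did. Across the 39 Rabs, Spearman's rho of the change was -0.588 with transcript length and 0.645 with GC content, and across 9852 genes it was -0.643 and 0.495. These correlations are across genes, which share the same 6 libraries and are not independent replicates.

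**Figure D2:**
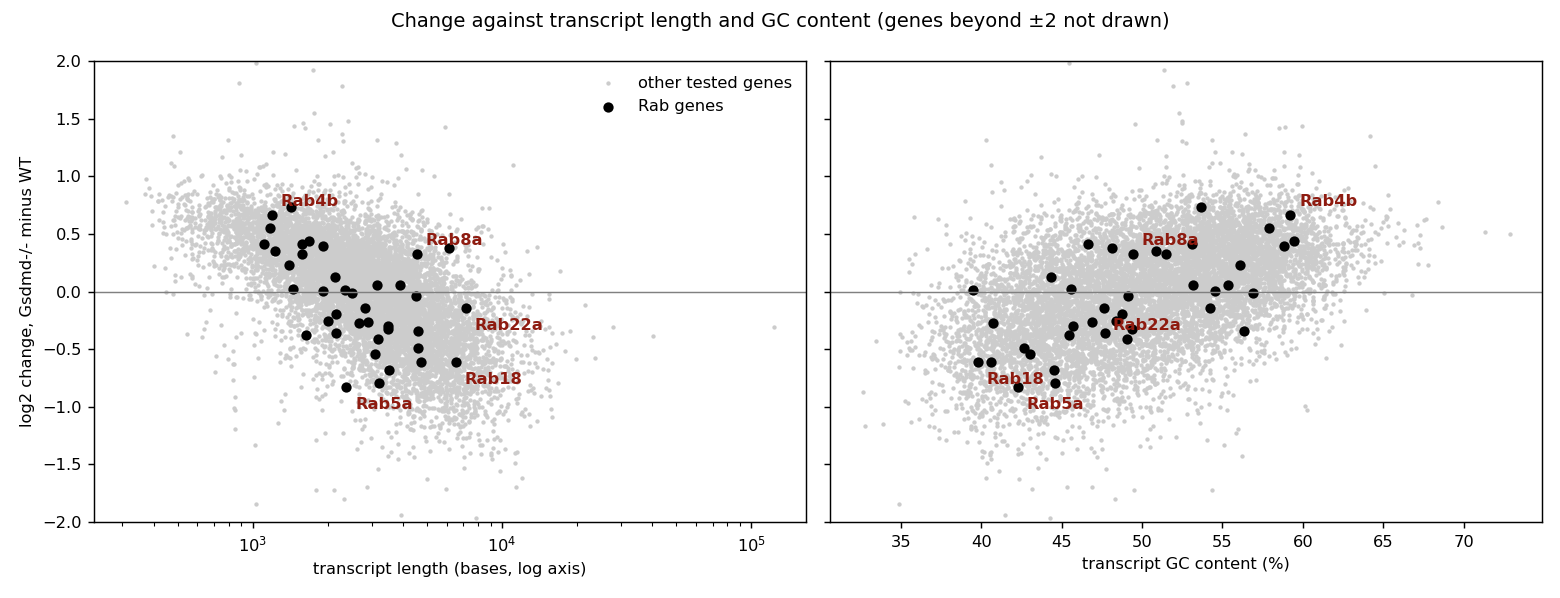
Log2 change, Gsdmd-/- minus WT, of each tested gene against transcript length (left, log axis, bases) and transcript GC content (right, percent), with Rab genes in black, some of them named, and the other genes in grey. Short, GC-rich Rabs such as Rab4b lie above 0 and long, GC-poor ones such as Rab18 below it, and Rab8a and Rab5a lie towards the edges of the grey cloud in length.

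The test was therefore repeated with the trend on length and GC content removed within each sample, and its values stand beside those as deposited where they change a call. On that scale 17 Rabs fell and 8 rose (43.6% and 20.5%), against 30.2% and 30% of all genes, and the median Rab change was -0.07 beside 0 for all genes. Of the 19 Rabs that fell, 13 fell on both scales, and of the 13 that rose, 5 rose on both. Rab4a and Rab38, whose entry to the test required a rise, are among the 5. Rab22a fell as deposited and rose with the trend removed, and Rab20 did the reverse. When the trend was taken from the median length and GC content of all coding transcripts of a gene, 19 Rabs fell and 8 rose, against 31.8% and 35.5% of all genes. Rescaled to TPM, which sets every sample to the same total, 26 of 42 tested Rabs fell and 9 rose, against 49.7% and 23.9% of all genes. The 26 include Rab23 (-0.44), which passed the filter on that scale through its WT samples alone and so had to be lower in Gsdmd-/- samples. Rab4a, among the 9, again passed through its Gsdmd-/- samples alone. TPM moved the median of all genes to -0.17 and that of the Rabs to -0.24. The share of risen genes among the called Rabs was 40.6% as deposited, 32% with the trend removed and 25.7% in TPM.

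A smaller set of Rabs kept its call in all 18 fits made (the deposited scale and 17 alternatives, counting only fits in which the gene was tested). It held 12 that fell, 30.8% of the tested Rabs beside 19.1% of all genes, and 3 that rose, beside 14.2% of all genes. The 12 were Rab5a, Rab5b, Rab6a, Rab7, Rab10, Rab12, Rab14, Rab28, Rab31, Rab32, Rab35 and Rab43. The 3 were Rab8a, Rab4a and Rab38, but Rab4a and Rab38 were tested in 14 of the fits only and passed the filter through their Gsdmd-/- samples alone, which leaves Rab8a as the risen gene whose entry did not require a rise. This set was picked after the values were seen.

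**Figure D3:**
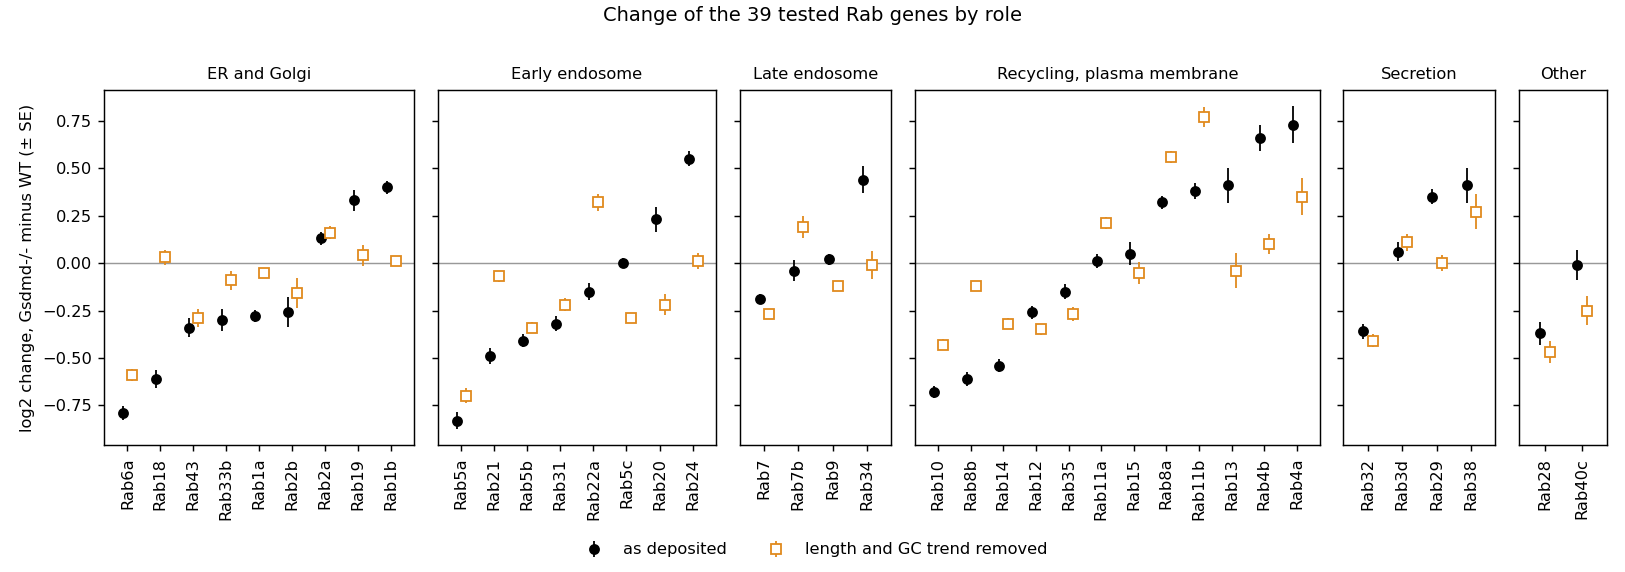
Log2 change ± SE, Gsdmd-/- minus WT, of the 39 tested Rab genes grouped by role, as deposited (black circles) and with the trend on transcript length and GC content removed (orange squares). Rab5a, Rab6a, Rab10 and Rab14 lie below 0 on both scales and Rab8a above 0 on both, while Rab24 and Rab1b move to near 0 with the trend removed.

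Of 8 tested Rabs of the early endosome and early phagosome, 5 fell and 2 rose in Gsdmd-/- macrophages, with a median change of -0.23, and with the trend removed 5 fell and 1 rose. With so few genes a role, these counts and those of the other roles are descriptions, to be read beside the 36.9% of all genes that fell and the 40.6% that rose. Rab5a (gene 271457, chromosome 17, positions 53479234 to 53507678 in GRCm38, plus strand), which drives fusion of early endosomes through effectors such as Eea1, fell more than any other tested Rab as deposited. It had 27.4, 25.7 and 24.8 FPKM in Gsdmd-/- samples, against 48.1, 45.2 and 47.3 FPKM in WT samples. The WT samples were all above the Gsdmd-/- samples. The change was -0.83 (SE 0.0443, adjusted p = 1.15e-08) as deposited and -0.70 (adjusted p = 1.88e-07) with the trend removed. Rab5b had 39.7, 40.0 and 39.4 FPKM in Gsdmd-/- samples and 54.8, 52.3 and 52.7 FPKM in WT samples, without overlap, and fell (log2 change -0.41, SE 0.0341, adjusted p = 3.7e-07; -0.34 with the trend removed).

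Rab5c, the most abundant gene of the Rab5 set, did not pass the test as deposited. Its level was 261, 259 and 261 FPKM in Gsdmd-/- samples and 259, 263 and 258 FPKM in WT samples, and the groups overlapped. The change was 0.00 (SE 0.0245, adjusted p = 0.92) as deposited, but Rab5c fell by 0.29 on the log2 scale with the trend removed (adjusted p = 6.13e-07) and by 0.22 in TPM.

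Rab21, which guides integrin traffic, had 55.3, 51.9 and 58.2 FPKM in Gsdmd-/- samples and 78.9, 76.8 and 77.9 FPKM in WT samples. The groups did not overlap, and it fell (log2 change -0.49, SE 0.0406, adjusted p = 3.85e-07). With the trend removed its change was -0.07 (adjusted p = 0.0709), and with the median transcript it was -0.52. Rab21 kept its call in 16 of the 18 fits. Rab31, a relative of Rab22a found on endosomes and phagosomes, had 21.1, 21.4 and 21.7 FPKM in Gsdmd-/- samples and 27.9, 26.6 and 26.7 FPKM in WT samples, and fell on both scales (-0.32, SE 0.0397, adjusted p = 1.17e-05; -0.22 with the trend removed). Rab22a itself averaged 35.3 ± 1.74 FPKM in Gsdmd-/- and 39.2 ± 1.18 FPKM in WT samples, and its change was -0.15 as deposited, 0.32 with the trend removed and 0.01 with the median transcript.

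Rab20 and Rab24 rose as deposited, and neither rose with the trend removed. Rab20, which acts in the maturation of macrophage phagosomes, had 46.5, 45.1 and 41.5 FPKM in Gsdmd-/- samples and 34.9, 42.2 and 36.2 FPKM in WT samples. The lowest Gsdmd-/- sample lay under the highest WT sample. Its change was 0.23 (SE 0.067, adjusted p = 0.00925) as deposited, -0.22 (adjusted p = 0.00543) with the trend removed and 0.01 in TPM. Rab24, linked to autophagy, had 35.2, 35.8 and 38.1 FPKM in Gsdmd-/- samples and 24.3, 24.8 and 24.4 FPKM in WT samples. It rose by 0.55 (SE 0.0405, adjusted p = 1.42e-07) and by 0.34 in TPM, and the change was 0.01 with the trend removed and 0.23 with the median transcript. In the annotation, 1258 bases of its exons overlap those of Prelid1 on the opposite strand, a far more abundant gene (489 FPKM in Gsdmd-/- and 336 FPKM in WT samples, change 0.54). Whether the counting used strand is not given, so the level of Rab24 is uncertain.

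Among Rabs of late endosomes, lysosomes and late phagosomes, 4 of 9 were tested, of which 1 fell and 1 rose as deposited, and 2 fell and 1 rose with the trend removed. Rab7 (gene 19349, chromosome 6, positions 87999106 to 88045270, minus strand), needed for fusion of phagosomes with lysosomes, had 324, 327 and 315 FPKM in Gsdmd-/- samples and 366, 372 and 366 FPKM in WT samples. All WT samples were above all Gsdmd-/- samples. It fell (log2 change -0.19, SE 0.0255, adjusted p = 2.33e-05) as deposited and by 0.27 with the trend removed, a small relative change in the most abundant Rab. Rab7b, which moves Toll-like receptors towards lysosomes, had 11.02, 9.89 and 9.65 FPKM in Gsdmd-/- samples and 10.2, 10.8 and 10.5 FPKM in WT samples, with overlap and a change of -0.04 (SE 0.057, adjusted p = 0.511). Its sign with the trend removed depended on the transcript taken, at 0.19 with the principal and -0.24 with the median transcript.

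Rab34, found on macropinosomes and lysosomes, had 8.27, 8.10 and 7.56 FPKM in Gsdmd-/- samples and 5.62, 5.08 and 6.22 FPKM in WT samples. It rose by 0.44 (SE 0.0694, adjusted p = 0.000103) without overlap of the groups, and its change was -0.01 with the trend removed. Rab9 averaged 102 ± 1.66 FPKM in Gsdmd-/- and 100 ± 1.56 FPKM in WT samples and did not pass the test as deposited (change 0.02), while it fell with the trend removed (-0.12, adjusted p = 0.00191) and in TPM (-0.20). Rab39, which acts on phagosomes and in autophagy, was below the filter, with 0.25, 0.18 and 0.13 FPKM in Gsdmd-/- samples and 0.42, 0.27 and 0.23 FPKM in WT samples.

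Rabs of recycling and of transport to the plasma membrane split evenly, with 5 risen and 5 fallen of 12 tested. Rab10 (gene 19325, chromosome 12, positions 3247428 to 3309969, minus strand), which brings Toll-like receptor 4 to the surface of macrophages, had 42.2, 41.3 and 42.9 FPKM in Gsdmd-/- samples and 67.3, 68.5 and 68.3 FPKM in WT samples. The groups lay far apart relative to their spread. Rab10 fell (log2 change -0.68, SE 0.0321, adjusted p = 5.07e-09), and by 0.43 with the trend removed. Rab14, which links early endosomes and phagosomes with the Golgi, had 55.1, 52.5 and 54.3 FPKM in Gsdmd-/- samples and 79.6, 79.6 and 78.1 FPKM in WT samples. It fell by 0.54 (SE 0.032, adjusted p = 2.45e-08), and by 0.32 with the trend removed, again with no overlap. Rab12 and Rab35, both active in endosomal sorting, fell by 0.26 and 0.15 on the log2 scale, and by 0.35 and 0.27 with the trend removed.

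Rab4b, a Rab of fast recycling from early endosomes, had 55.3, 57.6 and 48.4 FPKM in Gsdmd-/- samples and 32.6, 36.4 and 31.6 FPKM in WT samples. It rose by 0.66 (SE 0.0675, adjusted p = 5.39e-06) without overlap. Its change was 0.10 (adjusted p = 0.11) with the trend removed and 0.23 with the median transcript. Rab4b kept its call in 17 of the 18 fits. Its exons share 1280 bases with an annotated readthrough gene on the same strand, which leaves its level uncertain. Rab4a showed the same direction at a far lower level, with 1.59, 1.02 and 1.17 FPKM in Gsdmd-/- samples and 0.28, 0.43 and 0.36 FPKM in WT samples. Its change was 0.73 (SE 0.0978, adjusted p = 2.5e-05) and 0.35 with the trend removed. Rab4a passed the filter through its Gsdmd-/- samples alone, so it had to be higher there to be tested, and its rise is given as a description. Rab13, known from cell junctions, had 7.47, 9.37 and 9.20 FPKM in Gsdmd-/- samples and 7.03, 5.57 and 6.25 FPKM in WT samples. It rose by 0.41 (SE 0.0909, adjusted p = 0.00159), with a change of -0.04 when the trend was removed and 0.20 with the median transcript. Rab15 did not pass the test, and Rab25, an epithelial Rab, was at 0.1 FPKM or less in every sample.

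Rabs of the endoplasmic reticulum and Golgi all moved, with 6 of 9 tested fallen and 3 risen, but with the trend removed only 2 fell and 1 rose. Rab6a (gene 19346, chromosome 7, positions 100607575 to 100641268, plus strand), which acts in retrograde transport to and within the Golgi and in post-Golgi secretion, had 17.5, 17.2 and 17.3 FPKM in Gsdmd-/- samples and 31.0, 30.8 and 30.4 FPKM in WT samples. The spread within each group was under 1 FPKM. Rab6a fell (log2 change -0.79, SE 0.0379, adjusted p = 5.38e-09), and by 0.59 with the trend removed. Its exons overlap 708 bases of Mrpl48 on the opposite strand, and Mrpl48 rose (log2 change 0.64), with 32.4 FPKM in Gsdmd-/- and 20.5 FPKM in WT samples. The level of Rab6a is uncertain for the same reason as that of Rab24. Rab43 fell by 0.34 on the log2 scale and by 0.29 with the trend removed, and it shares 4164 exon bases with another annotated gene on its strand. Rab18, a Rab of the endoplasmic reticulum and lipid droplets, had 14.1, 14.5 and 14.8 FPKM in Gsdmd-/- samples and 23.5, 21.4 and 23.2 FPKM in WT samples. It fell (log2 change -0.61, SE 0.0477, adjusted p = 2.28e-07), but its change was 0.03 with the trend removed and -0.57 when the median transcript was used.

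Rab2a, which acts between the endoplasmic reticulum and the Golgi and at late endosomes, rose by 0.13 (adjusted p = 0.00746) as deposited and by 0.16 with the trend removed, and it fell by 0.09 on the log2 scale in TPM. Its paralog Rab2b fell by 0.26 (adjusted p = 0.00965) and did not pass the test with the trend removed. On the opposite strand, Rab2b exons overlap 2469 bases of Gm43766 and 195 bases of Tox4. Tox4 fell too (29.2 FPKM in Gsdmd-/- and 45.2 FPKM in WT samples, log2 change -0.61). The level of Rab2b is uncertain, as that of Rab24 is. Rab33b and Rab19 passed as deposited (-0.30 and 0.33) and not with the trend removed (-0.09 and 0.04). With the median transcript their changes were -0.53 and 0.17. Rab6b, Rab30 and Rab33a averaged under 1 FPKM.

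Of 12 Rabs of regulated secretion, 4 were tested and 9 averaged under 1 FPKM, 4 of them under 0.1 FPKM, and the neuronal and endocrine genes Rab3a, Rab3b, Rab3c and Rab26 were among the 8 below the filter. Rab27a, which docks secretory granules and exosome-bearing vesicles, had 0.71, 0.55 and 0.49 FPKM in Gsdmd-/- samples and 0.34, 0.21 and 0.53 FPKM in WT samples, with overlap, and was not tested. Rab32, which builds lysosome-related organelles and restricts some intracellular bacteria in mouse macrophages, was the abundant tested member that fell. It had 40.0, 40.7 and 38.1 FPKM in Gsdmd-/- samples and 52.5, 50.8 and 49.99 FPKM in WT samples. It fell (log2 change -0.36, SE 0.0377, adjusted p = 2.9e-06), and by 0.41 with the trend removed. Its close relative Rab38 had 1.14, 1.29 and 1.14 FPKM in Gsdmd-/- samples and 0.66, 0.84 and 0.45 FPKM in WT samples. Rab38 rose by 0.41 (SE 0.0925, adjusted p = 0.0014), and by 0.27 with the trend removed, and, like Rab4a, it passed the filter through the Gsdmd-/- samples alone. Rab29, a partner of the kinase Lrrk2, rose by 0.35 as deposited. Its change was 0.00 when the trend was removed and 0.11 with the median transcript. Of the remaining Rabs, Rab28 fell by 0.37 on the log2 scale, and by 0.47 with the trend removed. Rab40c did not pass the test as deposited (-0.01) and fell with the trend removed (-0.25, adjusted p = 0.0182). As deposited, Rab23 and Rab40b were below the filter.

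Close paralogs changed unequally, and the coding sequence around the nucleotide-binding loop is shown for the letters by which their reads differ. In each set below, 60 bases of coding sequence around the loop are given 5′ to 3′ from GENCODE M21 (GRCm38), and capitals mark the positions at which the members of the set differ.
Rab1a: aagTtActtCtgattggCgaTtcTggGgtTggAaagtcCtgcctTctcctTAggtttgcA
Rab1b: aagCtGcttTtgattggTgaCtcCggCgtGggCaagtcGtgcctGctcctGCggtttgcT
Rab8a: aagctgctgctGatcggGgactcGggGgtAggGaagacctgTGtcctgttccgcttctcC
Rab8b: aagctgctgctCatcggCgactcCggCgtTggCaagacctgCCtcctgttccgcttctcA
Rab11a: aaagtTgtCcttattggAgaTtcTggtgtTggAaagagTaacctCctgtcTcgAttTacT
Rab11b: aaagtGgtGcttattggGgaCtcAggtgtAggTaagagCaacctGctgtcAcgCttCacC
Rab5a: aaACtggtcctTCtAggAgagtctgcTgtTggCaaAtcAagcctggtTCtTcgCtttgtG
Rab5b: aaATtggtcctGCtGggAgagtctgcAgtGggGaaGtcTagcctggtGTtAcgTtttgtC
Rab5c: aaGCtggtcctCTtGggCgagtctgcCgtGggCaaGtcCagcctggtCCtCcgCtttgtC

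These windows encode the same residues within the Rab1, Rab11 and Rab5 sets, and not the same residues in Rab8a and Rab8b. Of the differing positions, 11 of 14 in Rab1, 8 of 9 in Rab8, 13 of 13 in Rab11 and 13 of 16 in Rab5 are at the last base of a codon. Over the whole coding sequence, Rab1a and Rab1b share 92.5% of residues and 77.6% of bases, Rab11a and Rab11b 91.2% and 75.2%, and Rab8a and Rab8b 83.6% and 76.5%. The sets also differ in composition. G or C stands at 46.3% of these last bases in Rab1a and 68.7% in Rab1b, at 39.8% in Rab11a and 67.9% in Rab11b, and at 31.6%, 56.3% and 64.4% in Rab5a, Rab5b and Rab5c. In the Rab8 pair the share is 70.0% in Rab8a and 52.2% in Rab8b. In each set, the gene with the highest share also had the highest log2 change as deposited (Rab1b, Rab11b, Rab5c and Rab8a). A link between the 2 was not tested in these sets.

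**Figure D4:**
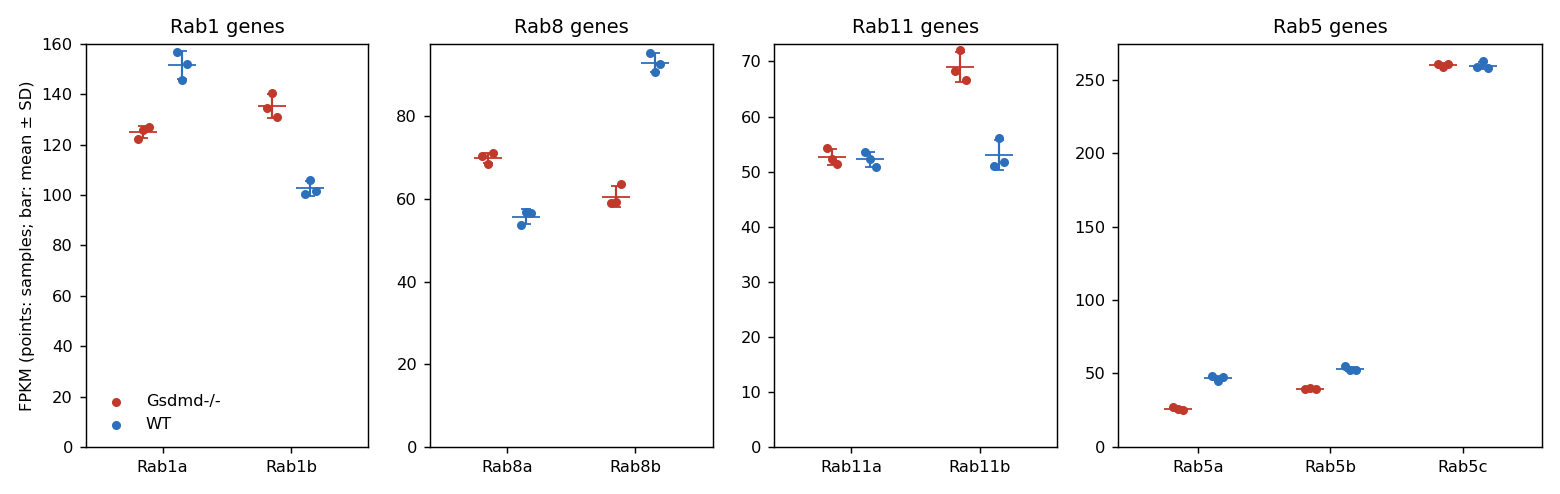
Level in FPKM of the Rab1, Rab8, Rab11 and Rab5 genes, with points for samples, bars for mean ± SD (n = 3), and Gsdmd-/- left of WT for each gene. Rab1a and Rab8b lie lower and Rab1b, Rab8a and Rab11b higher in Gsdmd-/- samples, while Rab11a and Rab5c overlap between the groups.

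In the Rab8 pair, which carries cargo from the Golgi and recycling endosomes to the plasma membrane, the more abundant gene was a different one in each genotype. Rab8a (gene 17274, chromosome 8, positions 72161200 to 72181366, plus strand) had 70.3, 68.5 and 71.0 FPKM in Gsdmd-/- samples and 53.7, 56.8 and 56.6 FPKM in WT samples. Rab8b (gene 235442, chromosome 9, positions 66843609 to 66919705, minus strand) had 58.9, 59.2 and 63.6 FPKM in Gsdmd-/- samples and 95.4, 90.7 and 92.7 FPKM in WT samples. Neither gene overlapped between the groups. Rab8a rose by 0.32 (SE 0.0344, adjusted p = 3.39e-06), and Rab8b fell (log2 change -0.61, SE 0.0372, adjusted p = 3.13e-08). Rab8a made up 53.6 ± 0.831% of the pair in Gsdmd-/- and 37.5 ± 1.3% in WT samples (SD, n = 3 each, exact p = 0.1, the smallest possible), and the pair's sum was 130 FPKM in Gsdmd-/- and 149 FPKM in WT samples.

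The unequal change of the Rab8 pair remained with the trend removed. The log2 ratio of Rab8a to Rab8b changed by 0.93 as deposited and by 0.68 with the trend removed, with no overlap of the groups on either scale. Rab8a then rose by 0.56 (0.64 with the median transcript) and Rab8b fell by 0.12 on the log2 scale, with a change of -0.04 that did not pass the test when the median transcript was used. The annotated transcripts of the pair have similar lengths, 4550 bases for Rab8a and 4733 for Rab8b, and GC contents of 49.4% and 40.6%.

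In the Rab1 pair, the main Rabs of transport from the endoplasmic reticulum to the Golgi, the genes moved in opposite directions and their sum hardly differed. Rab1a had 122, 126 and 127 FPKM in Gsdmd-/- samples and 157, 146 and 152 FPKM in WT samples, and it fell (log2 change -0.28, SE 0.0327, adjusted p = 8.75e-06). Rab1b had 135, 141 and 131 FPKM in Gsdmd-/- samples and 100, 106 and 101 FPKM in WT samples, and it rose by 0.40 (SE 0.0341, adjusted p = 5.38e-07). The groups did not overlap in either gene, while their sum was 260 ± 5.14 FPKM in Gsdmd-/- and 254 ± 2.88 FPKM in WT samples (SD, n = 3 each, exact p = 0.2). Rab1a made up 48 ± 1.04% of the pair in Gsdmd-/- and 59.6 ± 1.56% in WT samples. With the trend removed the shift of the pair was lost. The log2 ratio of Rab1b to Rab1a then changed by 0.06 in place of 0.67, and neither gene passed the test. The annotated transcripts are 2657 bases with 40.8% GC for Rab1a and 1913 bases with 58.9% GC for Rab1b.

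In the Rab11 pair of the recycling endosome, Rab11b was higher in Gsdmd-/- samples and Rab11a was not. Rab11b had 68.3, 72.1 and 66.6 FPKM in Gsdmd-/- samples and 51.0, 56.1 and 51.8 FPKM in WT samples, without overlap. It rose by 0.38 (SE 0.0433, adjusted p = 6.84e-06). Rab11a had 54.2, 52.3 and 51.4 FPKM in Gsdmd-/- samples and 53.6, 52.4 and 50.9 FPKM in WT samples, with overlap and a change of 0.01 (SE 0.0356, adjusted p = 0.81). With the trend removed the changes were 0.77 and 0.21 when the principal transcripts were used, 6109 bases for Rab11b and 2336 for Rab11a. With the median coding transcript, 1544 bases for Rab11b, they were 0.07 and -0.03 and neither passed the test. A processed pseudogene, Rab11b-ps2, matches Rab11b at 99.8% over 654 bases, so its reads cannot be separated with certainty.

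Rab5c took a larger share of the Rab5 set in Gsdmd-/- samples. It made up 79.9 ± 0.369% of the set in Gsdmd-/- and 72.2 ± 0.703% in WT samples, Rab5b 12.2 ± 0.135% and 14.8 ± 0.319%, and Rab5a 7.97 ± 0.366% and 13 ± 0.418% (SD, n = 3 each, exact p = 0.1 for each, the smallest possible). The set's sum was 326 ± 2.03 FPKM in Gsdmd-/- and 360 ± 1.97 FPKM in WT samples, without overlap. The log2 ratio of Rab5a to Rab5c changed by -0.83 as deposited and by -0.41 with the trend removed, without overlap of the groups. That of Rab5b to Rab5c changed by -0.42 as deposited and by -0.05 with the trend removed, with overlap on the second scale.

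Limits of the annotation touch other members too. In all, 20 of the 59 Rabs share exon bases with another gene, 15 of them with a gene on the opposite strand. Processed pseudogenes match Rab5b (99.4% over 648 bases), Rab7 (98.4%), Rab9 (96.9%), Rab2a (96.4%) and Rab6a (95.3%), and reads from them could add to these genes.

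Of the genes that act on or with Rabs, 103 were tested. As deposited 47 fell and 25 rose, beside 36.9% and 40.6% of all genes. The 47 include Dennd4a, Tbc1d12, Tbc1d24, Usp6nl and Rab11fip1, which passed the filter through their WT samples alone. Each had to be lower in Gsdmd-/- samples to be tested. Grtp1, among the 25, passed it through its Gsdmd-/- samples alone. These genes are also in the counts of the single lists below, and the shares of all genes come from the same filter. With the trend removed 32 fell and 31 rose, beside 30.2% and 30% of all genes, and the list's shares were then near those of all genes. In TPM 72 of 109 fell and 12 rose, beside 49.7% and 23.9%. In the prenylation and GDI cycle, 2 of 7 rose and 2 fell, as deposited and with the trend removed alike in number. Chm, which presents new Rabs for prenylation, averaged 2.2 ± 0.105 FPKM in Gsdmd-/- and 6.24 ± 0.501 FPKM in WT samples, and fell (log2 change -1.18, SE 0.0695, adjusted p = 2.52e-08; by 0.56 with the trend removed). Rabggta, a subunit of the prenylating enzyme, averaged 8.21 FPKM in Gsdmd-/- and 5.78 FPKM in WT samples and rose on both scales (0.44 and 0.31). Gdi2, the abundant GDI, fell as deposited (150 FPKM in Gsdmd-/- and 179 FPKM in WT samples, -0.26) and rose by 0.20 with the trend removed. Rabac1, a Rab acceptor protein, rose by 0.51 and fell by 0.15 on the same 2 scales.

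Of 28 exchange factors tested, 15 fell and 8 rose as deposited, and 11 fell and 8 rose with the trend removed. Dennd1b, an exchange factor for Rab35, changed most among those named, with 10.5 ± 0.405 FPKM in Gsdmd-/- and 29.7 ± 1.59 FPKM in WT samples. It fell (log2 change -1.41, SE 0.0504, adjusted p = 1.06e-09), and by 0.78 with the trend removed. Dennd4c, an exchange factor for Rab10, averaged 8.29 ± 0.401 FPKM in Gsdmd-/- and 18.1 ± 0.67 FPKM in WT samples and fell (log2 change -1.04, SE 0.0517, adjusted p = 7.06e-09), and by 0.58 with the trend removed. Rab35 and Rab10 fell too, as given above, but whether exchange factors and their Rabs moved together was not tested. Dennd1a, which like Dennd1c shares its family name with Dennd1b, went the other way. It averaged 50.9 FPKM in Gsdmd-/- and 45.3 FPKM in WT samples and rose as deposited (0.16) and with the trend removed (0.19). In TPM Dennd1a did not pass the test (-0.05). Dennd6b (5.05 FPKM in Gsdmd-/- and 2.97 FPKM in WT samples) and Dennd1c (19.8 FPKM in Gsdmd-/- and 13.9 FPKM in WT samples) rose on both scales.

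Of 31 GTPase-activating proteins tested, 17 fell and 7 rose as deposited, and 11 fell and 8 rose with the trend removed. The 17 include Tbc1d12, Tbc1d24 and Usp6nl, and the 7 include Grtp1, whose entry to the test required their direction. Tbc1d12 and Grtp1 are counted with the trend removed as well. Tbc1d9 and Tbc1d23 fell by 0.66 and 0.60 on the log2 scale, and Tbc1d7 and Tbc1d17 rose by 0.66 and 0.54. All 4 kept their direction and call with the trend removed, though Tbc1d17 did not pass the test with the median transcript (0.06). Of 37 effectors, 13 fell and 8 rose as deposited, and 8 fell and 13 rose with the trend removed. Eea1, the early endosome tether that binds Rab5, averaged 4.24 ± 0.292 FPKM in Gsdmd-/- and 9.10 ± 0.518 FPKM in WT samples and fell (log2 change -0.95, SE 0.0641, adjusted p = 7.11e-08), and by 0.31 with the trend removed. Ocrl, a phosphoinositide phosphatase that binds several Rabs, fell by 0.73 on the log2 scale, and by 0.34 with the trend removed. Vps41, a subunit of the HOPS tether that acts with Rab7, averaged 22 ± 0.901 FPKM in Gsdmd-/- and 16.4 ± 0.335 FPKM in WT samples and rose by 0.40 (SE 0.0448, adjusted p = 5.06e-06), and by 0.60 with the trend removed. Vps16, of the same tether, rose by 0.36 on both scales. The other listed subunits of that tether moved less. Vps11 rose by 0.13 as deposited and by 0.14 with the trend removed. Vps18 (-0.06), Vps33a (0.03) and Vps39 (-0.07) did not pass the test as deposited. With the trend removed Vps33a rose by 0.20, and Vps18 and Vps39 again did not pass. In TPM Vps18, Vps33a and Vps39 fell, and Vps11 did not pass.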

How the data were processed

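The submitters' processing notes name Bowtie2 2.2.5 and the build GRCm38.p6, and sequencing was on the BGISEQ-500, per the labels' protocols. Of the quantifier, annotation, use of strand and gene filters, nothing is given in the sources used here. The deposited tables give 1 value a gene, read as FPKM because sums differ between samples and the steps between low values shrink with transcript length, steps that also gave the depth estimate. In 26 cases a symbol turned into a date was replaced through the gene identifier.

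Genes with at least 1 FPKM in 3 samples were tested with limma 3.58.1 in R 4.3.3 (trend and robust settings) on log2(FPKM + 1), genotype only, with all 6 samples and Benjamini-Hochberg adjustment over 10005 genes. The trend on length and GC content was removed within each sample with a smooth fit (mgcv 1.9.3), using 1 principal GENCODE M21 transcript a gene, found for 98.5% of tested genes. Near-identical genes were sought with BLAST 2.17.0 (at least 95% over 300 bases). TPM was computed from the deposited FPKM. The replicate numbers did not pair the samples.

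In simulated data for this comparison with 10005 genes, the test recovered 87% of the genes given a log2 change of 0.5 and 98% of those given 1, with 0.051% false calls. A simulated length trend gave 63.2% false calls, and its removal brought that to 0.0621%. Only 200 genes were given a change, and the simulated trend was linear in the same lengths that the removal used, with no GC part. The simulation therefore cannot show how well the removal works in the data, where results depended on the transcript taken. The members and lists were chosen with earlier results of these data known. Values by sample are given for the 8 Rabs with the largest rise and the 8 with the largest fall without overlap, and for 16 Rabs known from phagosomes and secretion. Rab1a was added for its paralog after its values were seen, and other Rabs are given by level or change. From the lists of genes acting with Rabs, up to 4 a direction with the smallest p could be named, and 2 were. Dennd1a was added beside Dennd1b, and the other subunits of the HOPS tether beside Vps41 and Vps16, after their values were seen. Genes that entered the test through 1 group alone were named for that reason.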

Additional observations from a re-analysis of the deposited data

How the results depend on the processing

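Fallen Rabs numbered 17 to 26 over the 17 alternatives, against 19. Risen Rabs were 13 as deposited and 8 under both removals of the trend (the one with the median transcript was chosen after seeing the data). Role groups with more fallen than risen Rabs were 3 as deposited and 5 in TPM and under both removals. Genes acting with Rabs in TPM were 12 risen and 72 fallen, against 25 and 47. The family's sum was lower by a difference of -148.1 FPKM, -200.4 FPKM with median ratio scaling and -892.1 TPM on that scale. Leaving out each sample in turn gave 11 to 13 risen and 19 fallen Rabs, 3 to 4 such role groups, 22 to 25 risen and 39 to 47 fallen genes acting with Rabs, -1.74 to -1.71 for Gsdmd, and a sum difference of -156.8 to -143.3 FPKM. The 11 arose where a Gsdmd-/- sample was left out, since Rab4a and Rab38 then dropped below the filter.

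Signs turned with the trend removed for Rab34 (-0.01), Rab13 (-0.04), Rab18 (0.03), Rab7b (0.19), Rab20 (-0.22), Gdi2 (0.20) and Rabac1 (-0.15), with the same values under the replicate block, and for Rab22a (0.32), Rab9 (-0.12) and Rab15 (-0.05). With the median transcript they turned for Rab20 (-0.11), Rab11a (-0.03), Rab9 (-0.03), Rab1a (0.04), Rab22a (0.01), Rab15 (-0.24) and Rab3d (-0.06). Rab11a was also at -0.21 in TPM, -0.07 with quantile normalization, -0.03 with median ratio scaling and -0.01 without WT replicate 3 or Gsdmd-/- replicate 1. The cause was not tested. With the replicate number as a block the counts were 13 risen and 19 fallen Rabs, and 26 and 48 genes acting with Rabs, and with block and trend removal 9 and 17, and 27 and 33. Deviations of same-numbered samples correlated at -0.0818, 0.132 and 0.0143, and 1 of 3 Gsdmd-/- samples correlated best with its own number. The 20 untested Rabs were left out by the filter, and whether more depth would have let them be tested is not known.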
